A study of Mus musculus with 3 samples.

Results

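The semaphorin signalling genes of mouse NSC-34 cells were examined: all genes of the counts table named Sema with a number, the plexins of the A, B, C and D classes, and the neuropilins Nrp1 and Nrp2. The rule found 31 of the 22976 genes in the table, made up of 20 semaphorins, 9 plexins and 2 neuropilins. NSC-34 is a mouse cell line from the fusion of a neuroblastoma with motor neuron-rich cells of the embryonic spinal cord. Messenger RNA was sequenced in 2 libraries of clones that became resistant to PR20 spontaneously, clone 1 and clone 2, after 3 weeks with 10 µM PR20. The other library came from untreated cells and is called the control. PR20 is a proline-arginine repeat peptide, of the kind translated from the expanded C9ORF72 repeat in amyotrophic lateral sclerosis. The genotype label is wild type in the control and wild type with spontaneous resistance in the clones, and each clone library stands for 1 resistant line. The clones held 11389663 and 11307034 gene counts and the control 11700755. The labels do not say whether the clones were cultured separately, so the p-values reflect only the spread between these libraries, which can be technical.

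Semaphorins are guidance proteins that steer growing axons and migrating cells, mostly by repulsion. Class 3 members are secreted, classes 4 to 6 span the membrane and class 7 is held by a lipid anchor. Plexins are the signalling receptors and carry an intracellular domain that inactivates small GTPases of the Ras and Rap families. Most class 3 semaphorins bind plexins through the neuropilins, which have no catalytic domain and also bind vascular endothelial growth factors.

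By the edgeR test, the clones held less RNA of most tested semaphorins and of both neuropilins, and more RNA of the 4 most abundant plexins. Of 17 semaphorins with enough reads to test, 10 fell (58.8%) and 4 rose (23.5%), and of 7 plexins 4 rose (57.1%) and 2 fell (28.6%). By the same edgeR test 25.8% of all tested genes fell and 24.3% rose. The authors' deposited DESeq2 table called fewer members, 4 higher and 4 lower. Of the semaphorins, only Sema3c, Sema3e and Sema6d were called lower there, and only Sema6a higher. Nrp2 (DESeq2 adjusted p = 0.380) and the plexin Plxnb2 (0.192) did not pass there. Plxnd1 rose most among the members, 1.89-fold. Sema3c fell most, to 1 read in clone 1 and 4 reads in clone 2, against 54 reads in the control. In bulk RNA, fewer cells of a type and less RNA per cell cannot be told apart.

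Levels are counts scaled to library size by TMM (CPM), and log2 changes are log2 fold changes of the clones over the control from edgeR's quasi-likelihood test. A gene is said to have risen or fallen where its Benjamini-Hochberg adjusted p over all 13705 tested genes was under 0.05. Of the 31 members, 26 passed the filter on low counts, of which 8 rose, 14 fell and 4 did not pass. That call was made for 50.1% of all tested genes, 24.3% higher and 25.8% lower. The median log2 fold change was -0.26 over the 26 members and 0.002 over all tested genes. The changes were modest for most members: 9 of the 22 called members changed by less than 1.5-fold, 6 were at least 2-fold lower, and 0 were at least 2-fold higher. All 22 kept their direction when either clone was set alone against the control. This adds little, because both comparisons share the single control and the call itself rests on the spread between the clones. The control lay outside the range of both clones for 23 of the 26 members, as it did for 88.5% of all tested genes.

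The single control limits these calls, since the spread comes from the clones alone, and without the filter on low counts edgeR called 0 members, with 17 at an unadjusted p under 0.05. With a variation of 20% assumed for every gene, 5 members were called, all lower (Sema3c, Sema3e, Sema4a, Sema5a and Nrp1), against 8.38% of all tested genes. Calls at that setting were mostly lower over all tested genes too, with 992 lower and 156 higher. The authors' deposited table, made with DESeq2, has an adjusted p under 0.05 for 8 members, of which 4 were higher (Plxna1, Plxna3, Plxnd1 and Sema6a) and 4 lower (Sema3c, Sema3e, Sema6d and Nrp1). That threshold was met by 19.8% of the genes with an adjusted p in that table.

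**Figure D1:**
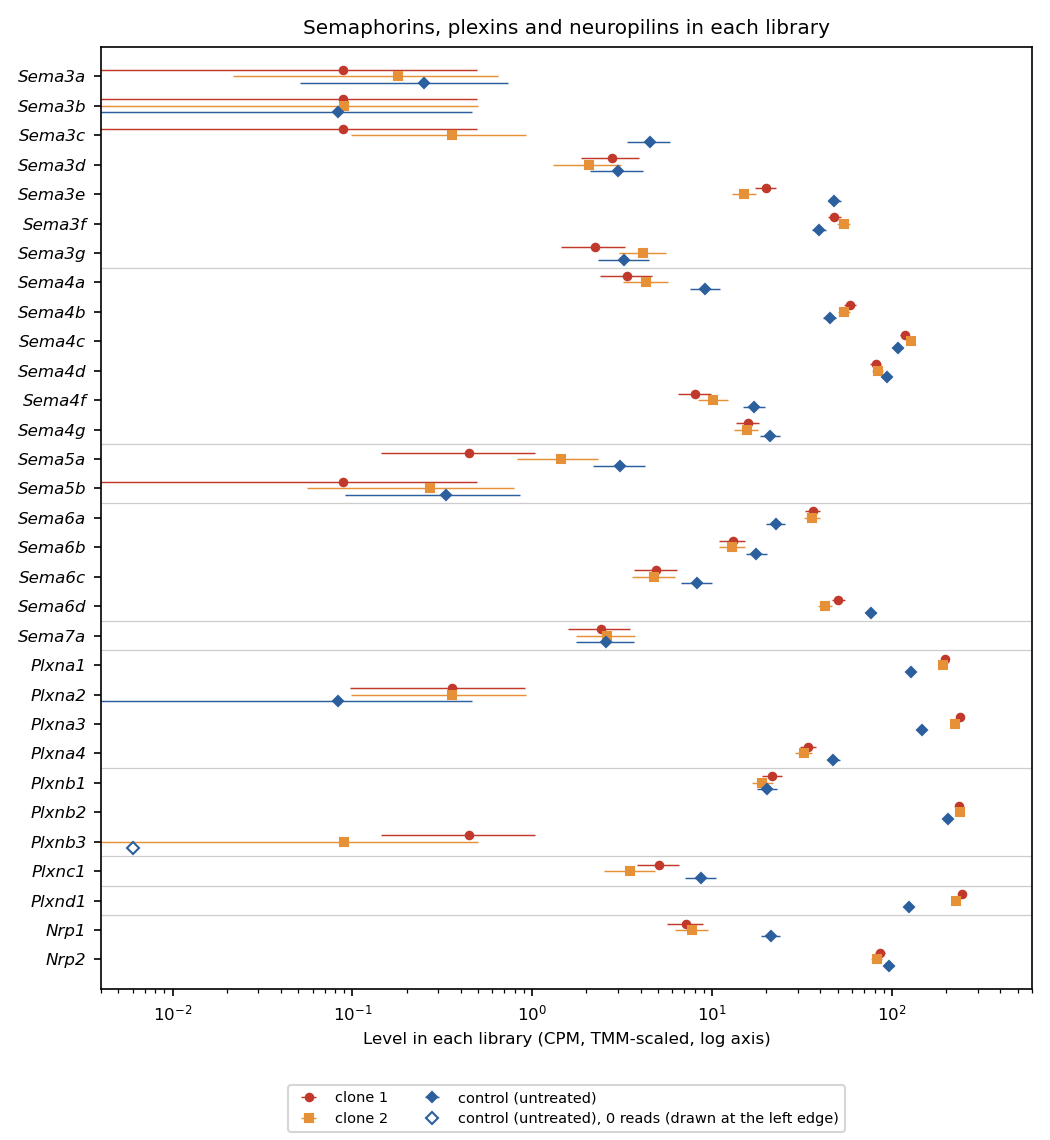
Level of each of the 31 members in clone 1, clone 2 and the control, in TMM-scaled CPM on a log axis, with 95% exact Poisson intervals that cover counting error only. Plxna1, Plxna3 and Plxnd1 lie higher in both clones, Sema3c, Sema3e and Nrp1 lie lower, and 5 members stay under 1 CPM in every library.

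The promoters of 5 members that the results turn on are shown, 2 that rose and 3 that fell, to set the base composition of members with opposite changes side by side. Each window runs from 250 bases before to 50 bases after the annotated start, 5′ to 3′ on the strand of the gene, from RefSeq on GRCm38.p6. Capitals mark GGGCGG or its reverse complement CCGCCC, the GC box.
Plxnd1 promoter, chr6:115994956-115995255, minus strand: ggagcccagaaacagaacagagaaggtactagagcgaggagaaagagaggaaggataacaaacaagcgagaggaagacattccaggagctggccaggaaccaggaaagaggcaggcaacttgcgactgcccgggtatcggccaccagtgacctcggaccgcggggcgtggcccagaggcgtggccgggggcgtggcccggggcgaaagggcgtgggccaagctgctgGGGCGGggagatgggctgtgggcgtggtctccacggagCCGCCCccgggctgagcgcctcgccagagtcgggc
Plxna3 promoter, chrX:74328816-74329115, plus strand: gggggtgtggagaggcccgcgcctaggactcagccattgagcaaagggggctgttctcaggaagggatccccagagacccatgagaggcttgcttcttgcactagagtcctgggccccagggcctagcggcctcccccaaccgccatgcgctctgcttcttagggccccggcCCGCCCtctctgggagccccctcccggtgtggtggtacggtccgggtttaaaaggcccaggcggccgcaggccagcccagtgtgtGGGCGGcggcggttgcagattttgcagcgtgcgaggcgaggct
Sema3e promoter, chr5:14025026-14025325, plus strand: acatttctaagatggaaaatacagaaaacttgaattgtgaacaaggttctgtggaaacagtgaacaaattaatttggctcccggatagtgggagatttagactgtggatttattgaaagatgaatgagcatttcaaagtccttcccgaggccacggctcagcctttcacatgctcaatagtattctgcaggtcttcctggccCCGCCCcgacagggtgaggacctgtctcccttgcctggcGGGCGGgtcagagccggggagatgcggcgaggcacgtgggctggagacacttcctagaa
Sema3c promoter, chr5:17574566-17574865, plus strand: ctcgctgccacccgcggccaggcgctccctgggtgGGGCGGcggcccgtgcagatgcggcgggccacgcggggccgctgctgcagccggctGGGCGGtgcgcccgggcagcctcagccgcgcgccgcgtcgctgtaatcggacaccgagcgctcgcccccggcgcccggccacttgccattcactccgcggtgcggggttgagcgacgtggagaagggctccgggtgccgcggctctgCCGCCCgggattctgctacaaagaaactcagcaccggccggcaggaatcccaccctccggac
Nrp1 promoter, chr8:128358823-128359122, plus strand: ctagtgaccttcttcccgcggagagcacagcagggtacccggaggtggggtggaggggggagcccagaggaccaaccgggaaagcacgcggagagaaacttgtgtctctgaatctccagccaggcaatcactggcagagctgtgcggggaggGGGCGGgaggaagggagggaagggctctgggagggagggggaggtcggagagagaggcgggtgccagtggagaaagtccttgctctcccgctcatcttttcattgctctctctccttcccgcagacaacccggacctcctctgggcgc
The counts of promoter windows used 37 RefSeq windows, from 26 of the members. GGGCGG on either strand was present in 27 of the 37 windows, against 35.7% of all 32851 windows of the same length. The windows of members were also richer in GC, with a median of 63.7%, against 52.7% over all windows. GGGCGG was present in all 8 windows of 5 genes that rose and in 15 of 21 windows of 13 genes that fell. These are counts of windows, and some genes have several. Counted by gene, all 5 that rose had a match in at least 1 window, and of the 13 that fell only Sema4f had none. Windows of Plxna1, Sema3f and Sema6a, which also rose, were not used here. TATAAA and TGACGTCA were in 0 of the 37 windows, and in 13.6% and 1.79% of all windows. CACGTG was in 3 windows, of Sema3e, Sema6d and Sema4b, and in 7.15% of all. In the 5 windows shown no match overlapped another. The Sema3c window had 42 CpG dinucleotides and 75.7% GC, the highest of the 5, and the Sema3e window had 11 CpG and 50.7% GC, the lowest. Both genes fell, and the Plxnd1 and Plxna3 windows, with 23 and 18 CpG, lay between them.

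Plxnd1, the receptor to which Sema3e binds directly in mouse, had 244 CPM in clone 1 and 227 CPM in clone 2, against 125 CPM in the control. Its log2 fold change was 0.92 ± 0.06 (SE; edgeR adjusted p = 7.47e-09). Both clones lay far above the control. Plxnd1 is annotated on chromosome 6, from 115954811 to 115995005 on the minus strand of GRCm38.

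Plxna1 and Plxna3, signalling partners of the neuropilins, rose by similar factors. Plxna1 had 197 and 192 CPM in the clones, against 127 CPM in the control, with a log2 change of 0.61 ± 0.06 (edgeR adjusted p = 3.78e-07). Plxna3 had 239 and 225 CPM in the clones, against 147 CPM in the control, with a log2 change of 0.66 ± 0.06 (edgeR adjusted p = 2.16e-07). For both genes the clones lay close together and above the control. Plxna3 lies on the X chromosome, where the median log2 fold change of tested genes was -0.22, so it stood 0.87 above its chromosome.

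Plxna4, a plexin A family receptor used by sensory and sympathetic axons, went the other way. It had 34.1 and 32.2 CPM in the clones, against 47.2 CPM in the control, with a log2 change of -0.51 ± 0.09 (edgeR adjusted p = 0.000243). Plxna4 did not pass in the authors' deposited table (adjusted p = 0.0752). The exons of Plxna4 overlap those of Plxna4os3 on the opposite strand, where the counting's strand setting, not stated in the sources used here, matters. Such opposite-strand overlaps also exist for Plxna1 with Gm26811 and Plxnb1 with Gm7628, which had at most 2 reads and 1 read in any library. Plxna2 had 4 reads in each clone and 1 read in the control, too few to test.

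Among the B plexins, receptors of class 4 semaphorins, Plxnb2 rose slightly. It had 236 and 238 CPM in the clones, against 206 CPM in the control, with a log2 change of 0.20 ± 0.05 (edgeR adjusted p = 0.00547). Chromosome 15, which carries Plxnb2, had a median log2 fold change of -0.28. Plxnb1, the Sema4d receptor, had 21.6 and 19 CPM in the clones, against 20.1 CPM in the control, and the control lay between the clones (log2 fold change 0.02 ± 0.13; edgeR adjusted p = 0.934). Plxnb3 had 5 reads in clone 1, 1 read in clone 2 and 0 reads in the control, where 3 counts would be 0.249 CPM. It did not pass the filter on low counts and was not tested.

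Plxnc1, a receptor of Sema7a, fell and was the least abundant plexin tested. It had 5.07 and 3.50 CPM in the clones, against 8.64 CPM in the control, with a log2 change of -1.01 ± 0.24 (edgeR adjusted p = 0.00272). The clones differed in size, with log2 fold changes of -0.77 for clone 1 alone and -1.30 for clone 2 alone. The read counts were 57 and 39 in the clones and 104 in the control. Plxnc1 did not pass in the authors' deposited table (DESeq2 adjusted p = 0.213).

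The order of levels among the plexins is given per exon length, as RPKM. Plxnd1 ranked first of the 9 plexins in both clones, with 33.4 and 31.1 RPKM, and the third in the control, with 17.1 RPKM. Plxnb2 had 30.6 and 30.8 RPKM in the clones, close to Plxnd1 in clone 2, and ranked first in the control with 26.7 RPKM. Plxna3 followed with 30.3 and 28.5 RPKM in the clones, against 18.7 RPKM in the control. Plxnb2, Plxna3 and Plxnd1 were close together in the clones, while in the control Plxnb2 stood apart from the other two. Plxna1 had 21.8 and 21.2 RPKM in the clones and 14 RPKM in the control. Plxna4 and Plxnb1 came next in each library, with 2.42 and 2.25 RPKM in clone 1, 2.29 and 1.98 RPKM in clone 2, and 3.35 and 2.10 RPKM in the control. Plxnd1 made up 27.5% and 26.7% of the summed plexin RPKM in the clones, against 20.6% in the control.

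**Figure D2:**
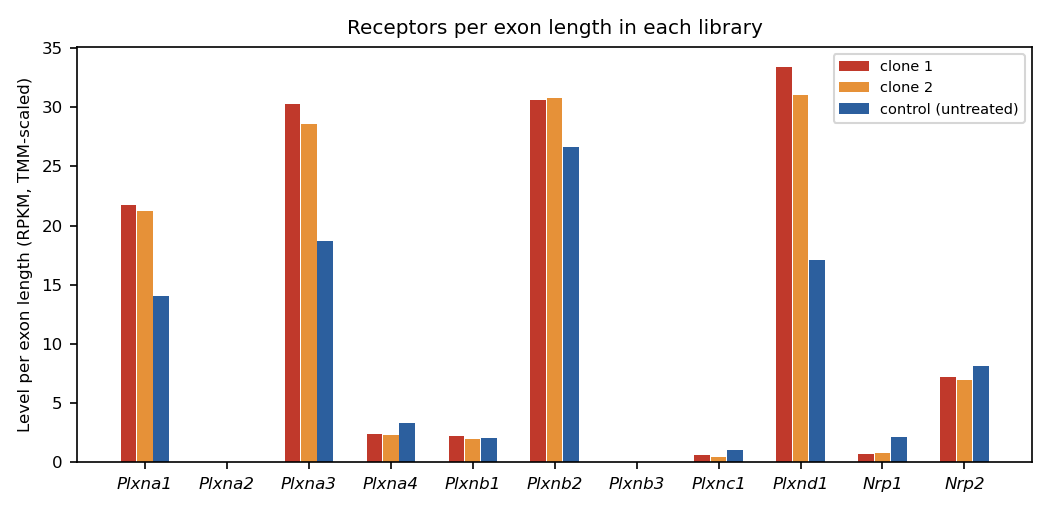
Level per exon length of the 9 plexins and 2 neuropilins in clone 1, clone 2 and the control, in RPKM with TMM scaling; each bar is 1 library. Plxnd1 reaches 33.4 and 31.1 RPKM in the clones and 17.1 RPKM in the control, and Nrp1 0.727, 0.789 and 2.17 RPKM.

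Neuropilins moved together in direction but not in size. Nrp1, the high-affinity receptor of Sema3a and a co-receptor of vascular endothelial growth factor, had 7.12 and 7.72 CPM in the clones, against 21.2 CPM in the control. Its log2 fold change was -1.51 ± 0.16 (SE; edgeR adjusted p = 9.95e-07), and the clones lay close to each other. Nrp2, the high-affinity receptor of Sema3f, had 85.6 and 82.0 CPM in the clones, against 96.4 CPM in the control, a log2 change of -0.20 ± 0.07 (edgeR adjusted p = 0.0204). Nrp2 did not pass in the authors' deposited table (adjusted p = 0.380). Within a library, Nrp1 reads were 0.0832 and 0.0942 of Nrp2 reads in the clones, against 0.22 in the control. The 95% counting intervals of these ratios, 0.0654 to 0.105 and 0.0746 to 0.118 in the clones, lie below that of the control, 0.191 to 0.252.

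Secreted class 3 ligands included the member with the largest fall, Sema3c. Sema3e, the ligand of Plxnd1, had 19.8 and 15.1 CPM in the clones, against 47.9 CPM in the control. Its log2 fold change was -1.45 ± 0.13 (SE; edgeR adjusted p = 1.03e-07). Clone 2 lay below clone 1, and both lay well below the control. Sema3c, a ligand of both neuropilins, had 0.0890 and 0.359 CPM in the clones, against 4.49 CPM in the control. With 5 reads in both clones together, the pooled ratio of clones over control was 0.0498 (95% counting interval 0.0155 to 0.123; edgeR adjusted p = 3.86e-06). Its fitted log2 fold change was -4.26, with -5.50 for clone 1 alone, -3.60 for clone 2 alone and -2.90 with a prior count of 5, so the size rests on few reads.

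Sema3f, the Nrp2 ligand, was the class 3 member that rose. It had 47.9 and 53.9 CPM in the clones, against 39.2 CPM in the control, with a log2 change of 0.37 ± 0.09 (edgeR adjusted p = 0.00362; adjusted p = 0.229 in the authors' deposited table). Sema3d had 2.76 and 2.06 CPM in the clones and 2.99 CPM in the control, and Sema3g had 2.22 and 4.13 CPM in the clones and 3.24 CPM in the control. Neither passed (edgeR adjusted p = 0.478 and 0.952), and for Sema3g the control lay between the clones. Sema3a, the best known repulsive semaphorin, had 1 and 2 reads in the clones and 3 reads in the control, and Sema3b had 1 read in every library. Neither of these was tested, and a difference was not detectable at this depth.

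Sema3c, Sema3d, Sema3e and Sema3a lie on chromosome 5, between 12383385 and 17730268. Only Sema3e and Sema3c of these 4 fell, while Sema3d did not pass and Sema3a was not tested. The median log2 fold change of chromosome 5 was -0.08.

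All 6 class 4 semaphorins, membrane-bound ligands that mostly signal through B plexins, were called, 2 higher and 4 lower, where 50.1% of all tested genes were called. Sema4c, a ligand of Plxnb2, was the most abundant semaphorin per length in every library, with 25.5 and 27.6 RPKM in the clones and 23.6 RPKM in the control. It had 117 and 127 CPM in the clones, against 108 CPM in the control, a log2 change of 0.17 ± 0.07 (edgeR adjusted p = 0.0421). That call was lost with RLE size factors and with limma-voom. The exons of Sema4c overlap D430040D24Rik on the opposite strand, which had 40 and 34 reads in the clones and 37 reads in the control. Sema4b had 58.4 and 54.2 CPM in the clones, against 45 CPM in the control, a log2 change of 0.33 ± 0.09 (edgeR adjusted p = 0.00481). Chromosome 7, which carries Sema4b, had a median log2 fold change of 0.26, so Sema4b stood 0.07 above its chromosome.

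Among the class 4 members that fell, Sema4a, which in mouse binds Plxnd1 and B plexins, changed most. It had 3.38 and 4.31 CPM in the clones, against 9.14 CPM in the control, with a log2 change of -1.25 ± 0.24 (edgeR adjusted p = 0.000361). Sema4f had 8.01 and 10.1 CPM in the clones, against 17.1 CPM in the control, and a log2 change of -0.92 ± 0.17 (edgeR adjusted p = 0.000344). For both genes clone 1 was the lower of the clones. Sema4g, a ligand of Plxnb2 in mouse, had 15.7 and 15.5 CPM in the clones, against 21 CPM in the control, with a log2 change of -0.43 ± 0.13 (edgeR adjusted p = 0.0140). Sema4d, the Plxnb1 ligand, had 81.0 and 83.0 CPM in the clones, against 93.7 CPM in the control, with a log2 change of -0.19 ± 0.07 (edgeR adjusted p = 0.0268). None of the class 4 members had an adjusted p under 0.05 in the authors' deposited table, where the lowest was 0.0766, for Sema4f.

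Class 6 semaphorins, which bind A plexins, had 3 members that fell and 1 that rose. Sema6d, a ligand of Plxna1, had 50.3 and 42.6 CPM in the clones, against 76.3 CPM in the control, with a log2 change of -0.72 ± 0.09 (SE; edgeR adjusted p = 7.14e-06). Sema6c had 4.89 and 4.76 CPM in the clones, against 8.23 CPM in the control, with a log2 change of -0.77 ± 0.22 (edgeR adjusted p = 0.00906). Sema6b had 13 and 12.9 CPM in the clones, against 17.6 CPM in the control, with a log2 change of -0.44 ± 0.15 (edgeR adjusted p = 0.0190). The clones nearly coincided for Sema6b and Sema6c and lay below the control. Neither gene passed in the authors' deposited table (DESeq2 adjusted p = 0.436 and 0.363). Sema6a, a ligand of Plxna2 and Plxna4 in mouse, had 36.2 and 36 CPM in the clones, against 22.5 CPM in the control, with a log2 change of 0.68 ± 0.11 (edgeR adjusted p = 6.13e-05). Chromosome 18, which carries Sema6a, had a median log2 fold change of 0.41 over 339 tested genes, and Sema6a stood 0.27 above it. The part of that chromosome-wide shift in the rise of Sema6a was not tested.

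Class 5 and class 7 members were scarce. Sema5a, a membrane semaphorin with thrombospondin repeats, had 5 and 16 reads in the clones, against 37 reads in the control, which is 0.445 and 1.44 CPM against 3.07 CPM. It fell with a log2 change of -1.70 ± 0.46 (edgeR adjusted p = 0.00596), of which clone 1 alone gave -2.76 and clone 2 alone -1.09. Clone 1 thus lay well below clone 2. Sema5a did not pass in the authors' deposited table (DESeq2 adjusted p = 0.303), and its chromosome 15 had a median log2 fold change of -0.28. Sema5b had 1 and 3 reads in the clones and 4 reads in the control and was not tested. Sema7a had 2.40 and 2.60 CPM in the clones and 2.58 CPM in the control, which lay between them (log2 fold change -0.04 ± 0.34; edgeR adjusted p = 0.931).

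**Figure D3:**
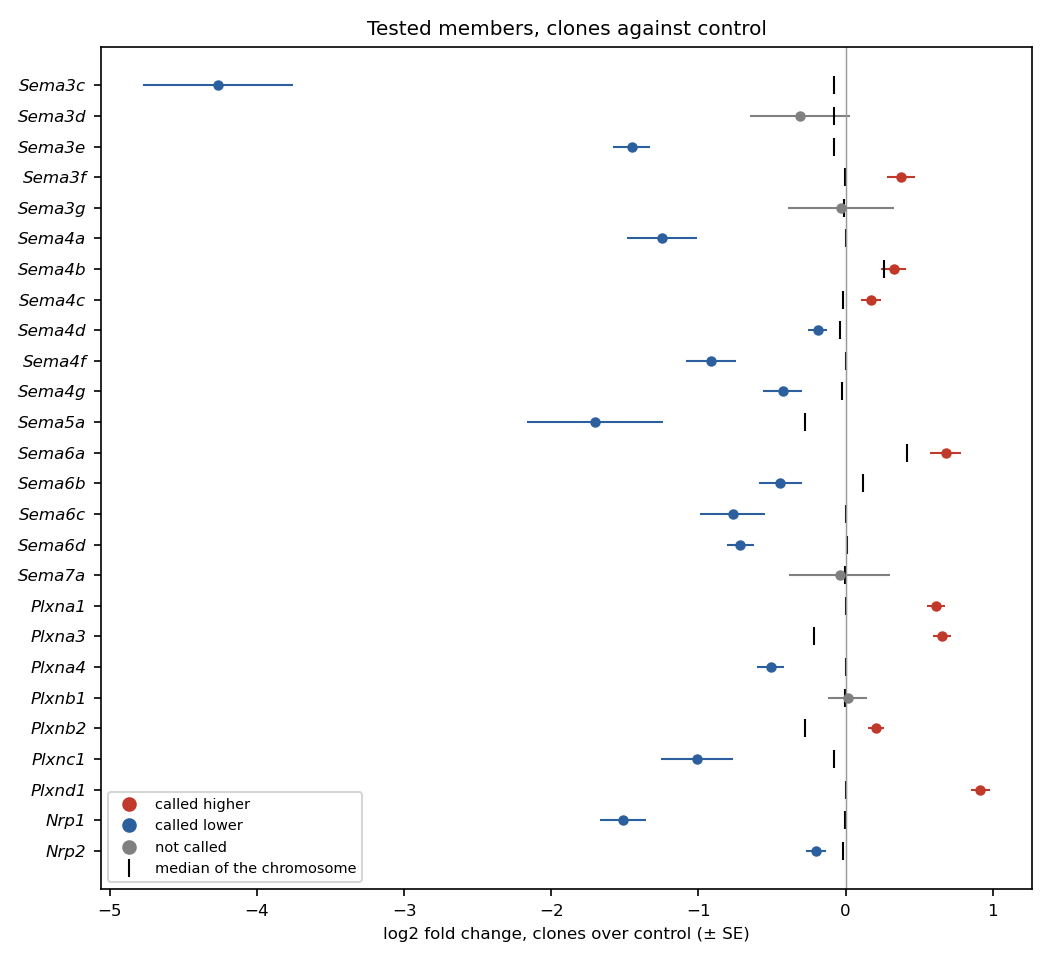
Log2 fold change of the 26 tested members, clones over control, with the approximate SE; colours give the call and the black tick the median of all tested genes on the same chromosome. Sema4b (0.33) lies near its tick (0.26), Sema6a (0.68) lies above a raised tick (0.41), and Plxnd1 (0.92), Nrp1 (-1.51) and Sema3e (-1.45) lie far from theirs.

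Ratios of reads within a library do not depend on scaling between libraries. They are ratios of reads, not of levels per length, so only the libraries can be compared within a pair. They were computed for 10 pairs of members, chosen with the levels known, and are given as descriptions. Sema3e reads were 0.0813 and 0.0665 of Plxnd1 reads in the clones, against 0.383 in the control, since the ligand fell while its receptor rose. The ratio of Sema6d to Plxna1 was 0.256 and 0.222 in the clones, against 0.60 in the control. Plxna4 stood at 0.173 and 0.168 of Plxna1 in the clones, against 0.371 in the control, and at 0.143 and 0.143 of Plxna3, against 0.321. In each of these cases the counting intervals of the clones and the control lay apart. Plxnd1 reads were 1.03 and 0.955 of Plxnb2 reads in the clones, against 0.607 in the control.

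For Sema4c over Plxnb2 and Sema4d over Plxnb1 the libraries were closer together. Sema4c was 0.497 and 0.534 of Plxnb2 in the clones, against 0.526 in the control, and the control lay between the clones. The ratio of Sema4d to Plxnb1 reads was 3.75 and 4.36 in the clones, against 4.66 in the control, with a counting interval of 4.05 to 5.37 in the control that overlapped that of both clones, 3.25 to 4.34 and 3.75 to 5.09. Sema3f was 0.559 and 0.657 of Nrp2 in the clones, against 0.407 in the control, and the intervals of both clones lay above that of the control. Sema7a was 0.474 and 0.744 of Plxnc1 in the clones, against 0.298 in the control, and the intervals of both clones, 0.288 to 0.761 and 0.443 to 1.23, overlapped that of the control, 0.193 to 0.449.

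**Figure D4:**
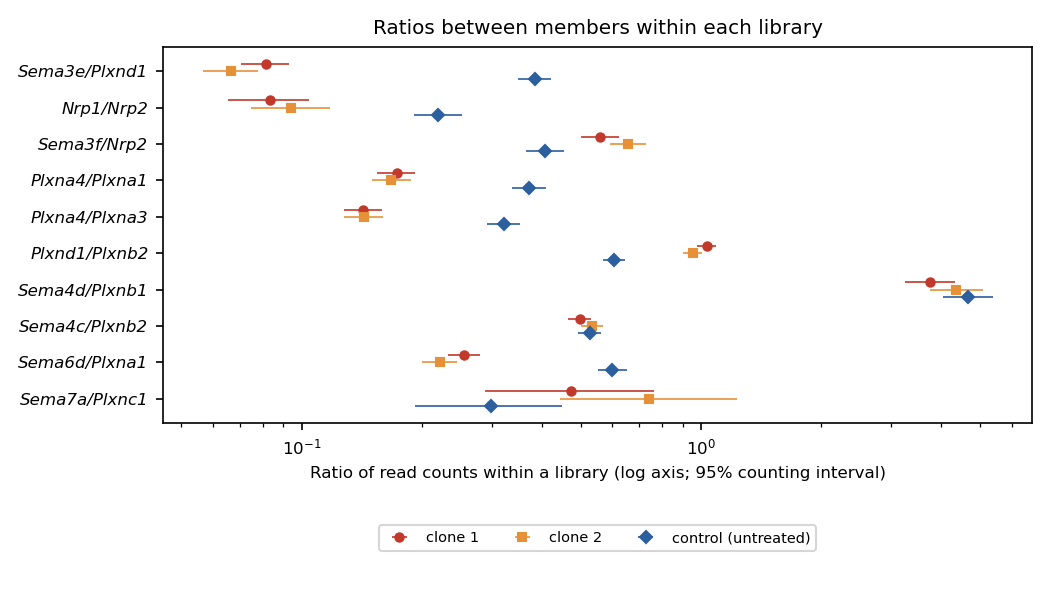
Ratio of read counts between 10 pairs of members within clone 1, clone 2 and the control, on a log axis with 95% exact counting intervals. Sema3e over Plxnd1 lies at 0.0813 and 0.0665 in the clones and at 0.383 in the control, while Sema4c over Plxnb2 stays near 0.5 in all 3 libraries.

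The clones lay close to each other for most members, though some differed by more than counting error. The median size of the log2 ratio of clone 2 over clone 1 was 0.11 over the 26 tested members. The counting interval of that ratio excluded 0 for 8 of the 26, a larger share than the 11.5% of all tested genes. That interval narrows with more reads, and the shares were not matched for reads, so they do not compare the size of the differences. With 1 library a clone there is no test. Sema5a and Sema3g were higher in clone 2, with log2 ratios of 1.52 (0.18 to 3.50) and 0.87 (0.16 to 1.66). Sema3f and Sema4c were slightly higher in clone 2, with ratios of 0.17 and 0.11. Sema3e was lower in clone 2, with a ratio of -0.39 (-0.69 to -0.10), as were Sema6d (-0.24), Plxnd1 (-0.10) and Plxna3 (-0.09). For Sema3e, Sema3f, Sema6d, Plxnd1 and Plxna3 the gap between the clones was smaller than that of either clone to the control. For Sema4c the gap of 0.11 was close to that of clone 1 to the control (0.12). For Sema5a the gap of 1.52 exceeded that of clone 2 to the control (-1.09), and for Sema3g the gap of 0.87 exceeded that of clone 1 (-0.54) and of clone 2 (0.35) to the control.

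Partners of the pathway were taken from 2 lists. Of the 29 proteins that bind or cleave semaphorins, plexins or neuropilins, 18 were tested, 8 rose (44.4%) and 4 fell (22.2%), against 24.3% and 25.8% of all tested genes, and the median of the list was 0.19 on the log2 scale. Ptk7, a receptor-like pseudokinase that in fly associates with plexins, had 167 and 178 CPM in the clones, against 79.1 CPM in the control (log2 fold change 1.13; edgeR adjusted p = 1.20e-09). The growth factor genes Pgf and Vegfa, whose products bind Nrp1, also rose, with log2 fold changes of 0.98 and 0.52. Furin, a protease that cleaves class 3 semaphorins, rose with a log2 fold change of 0.47, where its chromosome 7 had a median of 0.26. Kdr, the vascular endothelial growth factor receptor that pairs with Nrp1, had 9.96 and 11.2 CPM in the clones, against 22.1 CPM in the control (log2 fold change -1.06; edgeR adjusted p = 1.88e-05). The adhesion genes L1cam, which partners Nrp1, and Cntn2 fell, with log2 changes of -3.82 and -3.67, as did Itga1, whose integrin binds Sema7a, with -3.39.

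Among 46 listed cytosolic effectors 43 were tested, 13 rose (30.2%) and 15 fell (34.9%), against 24.3% and 25.8% of all tested genes, and the median of the list was 0.01 on the log2 scale. Mical2, a monooxygenase that disassembles actin, had 308 and 315 CPM in the clones, against 140 CPM in the control (log2 fold change 1.15; edgeR adjusted p = 1.37e-10). Mical1, which binds A plexins, rose with a log2 fold change of 0.45. Arhgap35, a GTPase-activating protein, and Vav2, a guanine nucleotide exchange factor, rose with log2 fold changes of 0.70 and 0.64. Mical2 and Arhgap35 lie on chromosome 7. Rap1b, a small GTPase that plexins inactivate, had 223 and 226 CPM in the clones, against 381 CPM in the control (log2 fold change -0.76; edgeR adjusted p = 5.79e-09). Dpysl3, Dpysl5 and Crmp1, of the collapsin response mediator family known for relaying Sema3a signals, fell, with log2 changes of -1.69, -0.98 and -2.36. Both lists were compiled with earlier results of these data known, and no set test was run.

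**Figure D5:**
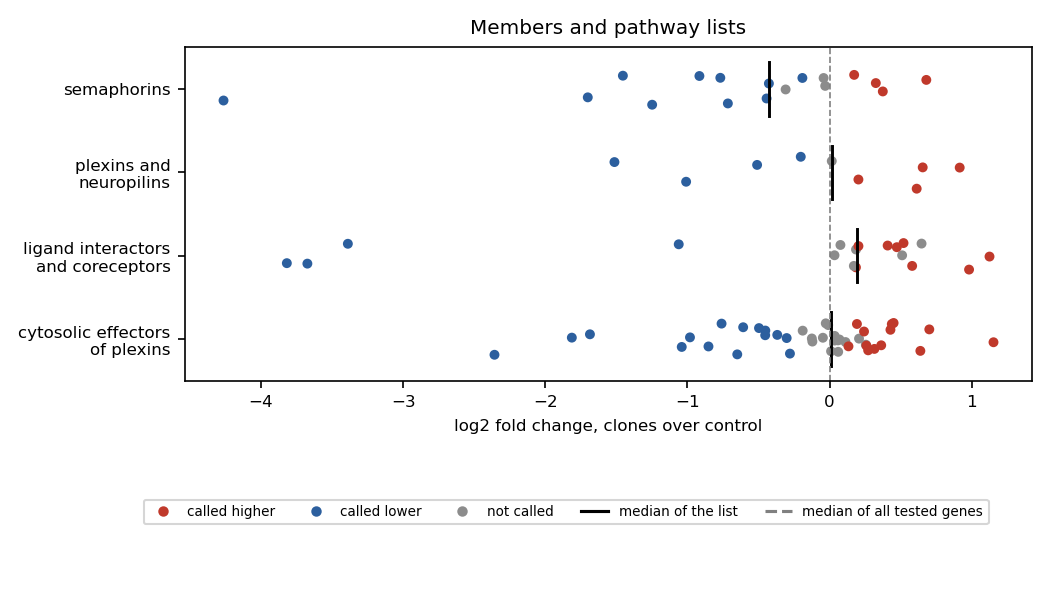
Log2 fold change of each tested gene, clones over control, for semaphorins, plexins with neuropilins, and the 2 pathway lists; black bars are the medians of the lists and the dashed line the median of all tested genes. Semaphorins have a median of -0.43 and the receptors 0.02, and points are spread vertically only to keep them apart.

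Cell type markers differed by list, where 25.8% of all tested genes fell and 24.3% rose. Those of motor neurons, neurons in general and the sympathetic lineage were lower in the clones. Of 6 endothelial markers only Kdr, also a listed partner of Nrp1, and Pecam1 were tested, and these 2 fell. The other lists were mixed or had no calls. Of 8 motor neuron markers counted, 4 were tested and all 4 fell, with a summed level of 6.14 and 5.30 CPM in the clones, against 25.1 CPM in the control. Chat, the gene of the acetylcholine-synthesising enzyme, had 0 reads in both clones and 7 reads in the control, and Mnx1 and Lhx3 had 3 reads or fewer in any library. The acetylcholine transporter gene Slc18a3 had 3 and 1 reads in the clones, against 113 reads in the control, and the transcription factor genes Isl1 and Isl2 had 23 and 17 reads and 38 and 33 reads in the clones, against 72 and 85 reads in the control. Lhx4 had 4 and 1 reads in the clones and 20 reads in the control, and Olig2 had 0 and 4 reads in the clones and 3 reads in the control. The control thus held RNA of part of the motor neuron list, and the clones less of it. All 8 tested pan-neuronal markers fell, from a list summing to 363 and 344 CPM in the clones, against 1523 CPM in the control. Of 8 sympathetic and neuroblastoma markers 7 fell, with sums of 831 and 754 CPM in the clones, against 1264 CPM in the control. Fibroblast markers summed to 100 and 132 CPM in the clones, against 104 CPM in the control. Of these 8 were tested, with 2 higher (25%) and 2 lower (25%), near the shares of all tested genes. Endothelial markers summed to 15.7 and 17.7 CPM in the clones, against 31.9 CPM in the control, and Cldn5 and Emcn had at most 1 read in any library. Much of that sum was Kdr, with 9.96 and 11.2 CPM in the clones and 22.1 CPM in the control. Tek had 3 and 6 reads in the clones and 3 reads in the control, and Cdh5 had 4 and 2 reads against 10 reads. Glial markers summed to 6.76 and 6.64 CPM in the clones, against 7.73 CPM in the control, and myeloid and lymphoid markers to 1.51 and 1.53 CPM, against 1.33 CPM. The part of these marker changes in the levels of the semaphorins and their receptors was not tested.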

How the data were processed

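Libraries were made from mRNA, with strand kept, per the labels' protocols. The authors counted whole reads per gene with STAR's gene counting option, per the file headers, and deposited raw counts. The deposited RPM values are, per the file headers, those counts scaled to mapped reads; they were not used in tests. The authors' DESeq2 table gives a fold ratio, a log2 fold change and p-values, per the file headers. STAR 2.5 with Gencode M16 (Ensembl 91) on GRCm38/mm10 is named in the headers, and STAR 2.5.3 in the submitters' processing notes. The counting's strand setting was not given in the sources used here.

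Groups came from the titles: 2 clones and 1 control. The counts were filtered with filterByExpr and tested two-sided with edgeR 4.0.16 (quasi-likelihood, legacy option off, TMM) in R 4.3.3, adjusted over 13705 genes at 0.05. The spread has 1 residual degree of freedom, moderated across genes. The SE is the log2 fold change over the square root of F. The fit was tested on simulated data. Every gene and library had the same small preset variation there, so the simulation does not cover an unknown spread between controls. Totals of 11307034 to 11700755 counts set the precision; 95% intervals and the floor of 3 counts cover counting error only. RPKM used union exon lengths and positions of Gencode M21 (GRCm38). Clone ratios used a prior count of 1. Alternatives were DESeq2 1.42.0, RLE factors, other filters, legacy and robust fits, limma-voom (limma 3.58.1), preset variations of 10% and 20%, a prior count of 5, chromosome-centred values and each clone left out.

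Members with a mean of at least 1 CPM or a call are given per library. Of each pathway list the 4 genes with the lowest p in each direction at a mean of at least 5 CPM are named. The members and lists were chosen with earlier results of these data known.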

Additional observations from a re-analysis of the deposited data

How the results depend on the processing

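No paired analysis was possible because the control is a single library and shares fewer than 2 replicate numbers with the clones. With edgeR, 8 members were called higher and 14 lower, and these counts stayed within 1.5 times with RLE factors, a mean of at least 1 CPM, the legacy and robust fits and limma-voom. DESeq2 called 4 higher and 4 lower, a preset variation of 10% called 4 higher and 10 lower, and one of 20% called 0 higher and 5 lower (9 members at an unadjusted p under 0.05). Over all tested genes the 20% setting called 156 higher and 992 lower. Without a low-count filter edgeR called 0 members in either direction, with 17 at an unadjusted p under 0.05, and the same held for the legacy fit without a filter, an alternative chosen after seeing the data, with 18. The cause was not tested. All tested genes gave 6868 calls, against 3037 with DESeq2, 3617 and 1148 at 10% and 20%, 4 without a filter and 0 without a filter in the legacy fit. The 2 pathway lists gave 40 calls, against 25, 22, 10, 0 and 0. The median log2 fold change of the members was -0.26, between -0.34 and -0.31 with a clone left out, -0.23 with a prior count of 5 and -0.21 minus the chromosome median, all alternatives for this median having been added after seeing the data. Leaving out a clone gives values without a test, so no counts of calls. No called member reversed under any alternative run, which adds little, because all runs share the same single control. The depth left 5 members untested, with 5 reads or fewer in each library.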
